A study of Mus musculus with 12 samples.

Results

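The peroxiredoxins Prdx1 to Prdx6, the thioredoxins Txn1 and Txn2, and the superoxide dismutases Sod1 and Sod2 are 10 of the 24502 genes in a table of RNA counts from mouse regulatory T (Treg) cells. They were chosen by symbol as peroxide- and superoxide-removing enzymes and their thioredoxin electron donors, with earlier results of these data known. All 10 passed the filter on low counts that left 14827 genes for testing. Libraries came from 2 genotypes at 11 weeks of age: mice labelled only WT, and Foxp3Cre Gpx4fl/fl mice, in which Cre recombinase under control of Foxp3 removes a loxP-flanked Gpx4 (Gpx4-deficient below). Purified Treg cells were taken unstimulated or stimulated for 4 h through CD3 and CD28 with antibody coated at 5 µg/ml, in Click's medium with β-mercaptoethanol, a thiol reducing agent. The 4 groups had 3 libraries each, and 600 ng of RNA went into a stranded mRNA library. Whether WT mice carried the Cre transgene is not stated, nor whether unstimulated cells were cultured, so Cre and genotype, and culture and stimulation, cannot be told apart.

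Superoxide dismutases turn superoxide into hydrogen peroxide, Sod1 in the cytosol and Sod2 in the mitochondrial matrix. Peroxiredoxins reduce that peroxide, and most of them also reduce organic peroxides, through a reactive cysteine that thioredoxin then returns to its reduced state. Thioredoxin draws its electrons from NADPH through the selenoprotein thioredoxin reductases, with Txn1 serving the cytosol and nucleus and Txn2 the mitochondria. Gpx4, the gene deleted here, encodes the glutathione-dependent enzyme that reduces lipid hydroperoxides inside membranes.

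Levels are CPM, counts scaled to library size with TMM factors, and a group's mean carries its SD (n = 3 libraries). Differences are log2 values from edgeR with a standard error (SE), and a gene was called at an edgeR adjusted p under 0.05 over all genes tested. Totals ran from 24629230 to 31879267 counts per library, and the 10 genes held between 258 and 16164 counts each. The libraries labelled Gpx4-deficient had Gpx4 at 8.20 ± 3.77 CPM unstimulated and 7.03 ± 3.22 CPM stimulated (SD, n = 3), against 153.7 ± 16.1 and 86.5 ± 19.4 CPM in WT. Foxp3 was detected in every group, at 23.8 ± 3.09 to 63.9 ± 14.5 CPM. Stimulated Gpx4-deficient libraries had the largest share of mitochondrially encoded counts (2.84% to 3.72%, against 1.18% to 1.94% in the other groups) and the most genes at 0 despite a mean of at least 5 CPM in the other libraries (107 to 190, against 9 to 69). Replicate 3 of that group had the extreme value of both. Nothing states that replicates are different animals, and p-values here therefore rest on a spread between libraries that may be technical. WT and Gpx4-deficient libraries also carry identifiers from separate blocks, and a batch effect and a genotype effect cannot be told apart.

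By group mean, Prdx1 was the most abundant of the 10 genes per kilobase of transcript in every group, under both definitions of length tried. Divided by the median length of the annotated coding transcripts, its level was 575.5 ± 37.7 CPM per kb in unstimulated WT cells and 749.1 ± 153.9 CPM per kb in stimulated Gpx4-deficient cells (SD, n = 3). In unstimulated WT cells Txn2 (182.8 ± 20.8 CPM per kb), Prdx6 (139.4 ± 4.66) and Prdx2 (109.4 ± 7.98) followed, and no neighbouring pair among these 4 genes overlapped in that group. Next came Prdx5 (91.9 ± 6.81) and Txn1 (91.8 ± 7.19), whose libraries overlapped, and then Sod1 (57.6 ± 12.7) and Prdx3 (55.4 ± 7.48), which also overlapped. Prdx4 (33.1 ± 4.95) and Sod2 (28.5 ± 1.72) were last and overlapped each other. With the length of merged exons in place of the transcript, only 3 of the 10 genes kept their rank in unstimulated WT cells: Txn2 moved from rank 2 to 6 and Prdx3 from 8 to 3, so the order below Prdx1 depends on the length used. By merged exons the mean in stimulated Gpx4-deficient cells was 162.7 CPM per kb for Prdx1 and 121.5 for Txn1, and their libraries overlapped.

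**Figure D1:**
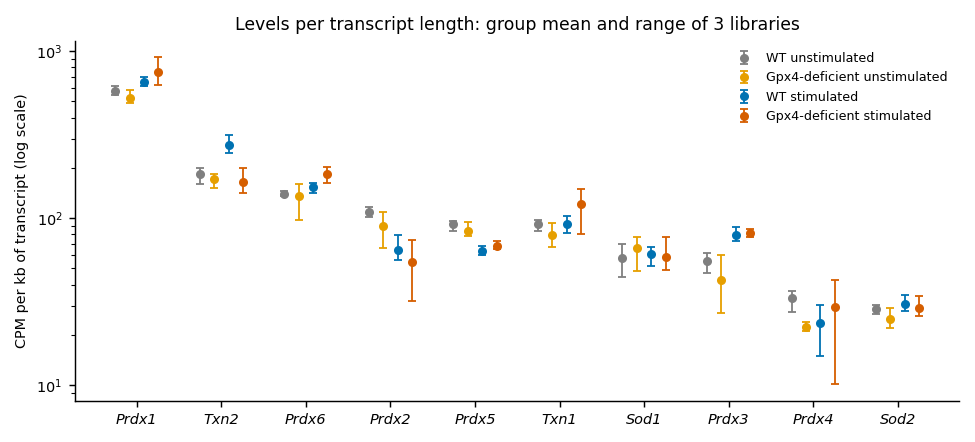
Level per kilobase of transcript (CPM per kb, log scale) of the 10 genes in the 4 groups; points are means and bars run from the lowest to the highest of 3 libraries. Prdx1 lay above the other 9 genes in every group, and Txn2 stood apart from its other groups in stimulated WT cells.

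Few of the 10 genes passed the test in any comparison. Without stimulation, 0 of 10 differed between the genotypes by edgeR (0.0674% of all genes were called). 0 of 10 had an unadjusted p under 0.05 (5.80% of all genes did), and DESeq2 and limma-voom called 0 as well. In 1 of 10, Prdx4, the genotypes did not overlap (18.3% of all genes). The Gpx4-deficient value was the lower for 9 of the 10, with a median log2 difference of -0.17 against 0.01 over all genes. The 10 genes share their libraries, so this is no count of independent results. Their mean log2 deviation from each gene's average over the 12 libraries was -0.19, -0.24 and 0.03 in unstimulated Gpx4-deficient replicates 1 to 3. In unstimulated WT replicates it was 0.08, 0.10 and 0.01, so Gpx4-deficient replicate 3 lay within the WT range. With stimulation, 1 of 10 differed, Txn2, which was lower in Gpx4-deficient cells (2.27% of all genes were called, 1.25% as lower). It was also the 1 gene without overlap between the genotypes (20.1% of all genes) and the 1 with an unadjusted p under 0.05 (18.3%). Upon stimulation of WT cells 1 of 10 was called, Txn2, which rose (11.5% of all genes were called, 6.12% as higher). There 3 of 10 had an unadjusted p under 0.05 (23.3%), and 4 of 10 did not overlap between the states (42.0%): Txn2 and Prdx3 were higher and Prdx2 and Prdx5 lower. In Gpx4-deficient cells 2 of 10 were called, Prdx1 and Prdx3, which rose (15.3% of all genes were called, 7.45% as higher). There 5 of 10 had an unadjusted p under 0.05 (29.7%) and 4 of 10 did not overlap (29.8%): Prdx1, Prdx3 and Prdx6 were higher and Prdx5 lower. The share of the 10 genes called was near that of all genes in both genotypes, and the median response was 0.10 in WT and 0.31 in Gpx4-deficient cells, against -0.03 and -0.02 over all genes.

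The interaction, which is the response to stimulation in Gpx4-deficient cells less the response in WT, passed the edgeR test for 0 of 10 genes (0.202% of all genes were called). Only Txn2 had an unadjusted p under 0.05 (8.75% of all genes did), and DESeq2 and limma-voom also called 0. No response of these genes was therefore shown to differ between the genotypes. The 2 Txn2 calls rest on the same 3 stimulated WT libraries. In these bulk samples, fewer cells with a transcript and less of it per cell cannot be told apart.

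**Figure D2:**
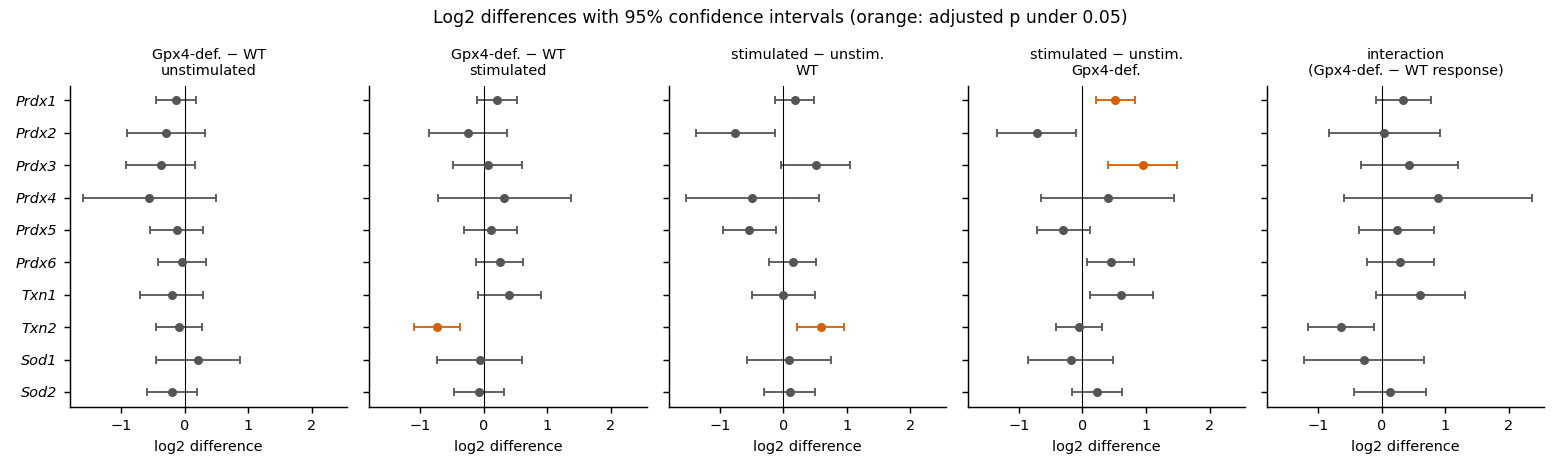
Log2 differences of the 10 genes in the 5 comparisons, with 95% confidence intervals from the edgeR fit; orange marks an adjusted p under 0.05. Orange points are Txn2 in stimulated cells between genotypes (-0.74) and upon stimulation of WT cells (0.59), and Prdx1 (0.52) and Prdx3 (0.95) upon stimulation of Gpx4-deficient cells.

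Prdx1, a cytosolic and nuclear peroxiredoxin that is also released from cells, is encoded at chr4:116685544-116700822 (GRCm38, GENCODE M21, plus strand; ENSMUSG00000028691.12). Its level in replicates 1 to 3 was 363.3, 409.0 and 368.8 CPM in unstimulated WT cells and 464.6, 419.1 and 407.1 CPM in stimulated ones. In Gpx4-deficient cells it was 329.0, 321.9 and 385.7 CPM unstimulated and 415.0, 461.0 and 609.6 CPM stimulated. All stimulated Gpx4-deficient libraries lay above the unstimulated ones, replicate 3 farthest, whereas the WT libraries overlapped. Prdx1 rose 1.43-fold upon stimulation of Gpx4-deficient cells (log2 0.52, SE 0.14, edgeR adjusted p = 0.0289). In WT cells the difference was 0.18 (95% interval -0.13 to 0.49, adjusted p = 0.548), and the interaction was 0.34 (-0.10 to 0.78, adjusted p = 0.68). The call was lost without stimulated Gpx4-deficient replicate 3 (0.34, adjusted p = 0.0853), and without unstimulated replicate 1 (adjusted p = 0.0568) or 2 (0.0661) of that genotype.

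Prdx3, the peroxiredoxin of the mitochondrial matrix, is encoded at chr19:60864051-60874556 (minus strand; ENSMUSG00000024997.7). It measured 40.1, 60.0 and 88.7 CPM in unstimulated Gpx4-deficient cells and 113.7, 123.1 and 126.7 CPM in stimulated ones. In WT cells it was 91.3, 84.6 and 69.7 CPM unstimulated and 130.2, 111.0 and 108.2 CPM stimulated. Stimulated libraries lay above unstimulated ones in both genotypes, and the unstimulated Gpx4-deficient libraries were the most spread out. The rise in Gpx4-deficient cells was 1.93-fold (log2 0.95, SE 0.25, edgeR adjusted p = 0.0247). In WT cells the difference of 0.51 missed the threshold (95% interval -0.03 to 1.05, adjusted p = 0.251), and the interaction was 0.44 (-0.33 to 1.20, adjusted p = 0.801). Leaving out unstimulated replicate 2 (0.95, adjusted p = 0.0618) or stimulated replicate 3 (0.91, adjusted p = 0.0502) of the Gpx4-deficient cells took the call away.

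Txn2, the mitochondrial thioredoxin that reduces Prdx3, is encoded at chr15:77915047-77929006 (minus strand; ENSMUSG00000005354.16). Its stimulated WT libraries held 242.5, 259.3 and 312.5 CPM, above all 9 other libraries. Unstimulated WT libraries held 198.5, 184.5 and 158.1 CPM and unstimulated Gpx4-deficient ones 173.7, 150.1 and 182.8 CPM. Stimulated Gpx4-deficient libraries held 197.6, 139.3 and 150.8 CPM, of which replicate 2 lay below every unstimulated library and the others within the unstimulated range. Txn2 rose 1.5-fold in WT cells (log2 0.59, SE 0.17, edgeR adjusted p = 0.0411), while in Gpx4-deficient cells the difference was -0.06 (95% interval -0.42 to 0.31, adjusted p = 0.879). Between stimulated cells it was 1.67-fold lower in the Gpx4-deficient ones (log2 -0.74, SE 0.17, adjusted p = 0.0433). Between unstimulated cells the difference was -0.10 (-0.46 to 0.27, adjusted p = 1), and the interaction was -0.64 (-1.16 to -0.13, unadjusted p = 0.0186, adjusted p = 0.453).

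Both Txn2 calls lay close to the threshold. With RLE scaling or no low-count filter the difference between stimulated cells had an edgeR adjusted p = 0.0508, and with library totals or no filter the rise in WT had 0.0548 and 0.0797. The difference between stimulated cells lost its call in 5 of the 6 fits without a library, with adjusted p from 0.0869 to 0.192, and held only without stimulated Gpx4-deficient replicate 1 (-0.86, adjusted p = 0.016). The rise in WT cells held in 1 of 6 such fits, without stimulated replicate 1 (0.69, adjusted p = 0.0417), and lost its call in the others with adjusted p from 0.0756 to 0.182. The direction of both was the same in every such fit. Mitochondrially encoded transcripts, whose share was higher in stimulated Gpx4-deficient libraries, moved the opposite way to Txn2 between stimulated groups, and their part in the result was not tested.

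The promoter stretches of Prdx1, Prdx3 and Txn2 are shown because these 3 genes carried the calls, with those of Srxn1 and Glrx, related genes described below that were picked after their AP-1 matches were seen. Txnip, Txnrd1, Sesn2 and Gpx1, whose calls held at least as well, had no AP-1 match and are not shown. Sequences are RefSeq's for GRCm38.p6, 5′ to 3′ on the gene's strand, and end where the annotated gene begins. They are chr4:116685349-116685543 (plus), chr19:60874557-60874788 (minus), chr15:77929007-77929244 (minus), chr2:152105274-152105515 (plus) and chr13:75839635-75839867 (plus). Capitals mark matches to the AP-1 motif TGAGTCA (reverse complement TGACTCA) and, in Prdx1, to the antioxidant response element core TGACNNNGC, read on the other strand as GCNNNGTCA.
Prdx1: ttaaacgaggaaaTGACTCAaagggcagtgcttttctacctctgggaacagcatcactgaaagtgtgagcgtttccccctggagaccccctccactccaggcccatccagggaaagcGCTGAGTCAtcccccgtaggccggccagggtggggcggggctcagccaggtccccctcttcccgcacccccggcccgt
Prdx3: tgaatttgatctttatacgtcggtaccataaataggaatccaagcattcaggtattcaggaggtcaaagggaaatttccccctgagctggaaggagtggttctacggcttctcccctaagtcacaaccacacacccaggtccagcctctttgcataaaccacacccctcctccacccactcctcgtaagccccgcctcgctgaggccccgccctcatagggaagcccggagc
Txn2: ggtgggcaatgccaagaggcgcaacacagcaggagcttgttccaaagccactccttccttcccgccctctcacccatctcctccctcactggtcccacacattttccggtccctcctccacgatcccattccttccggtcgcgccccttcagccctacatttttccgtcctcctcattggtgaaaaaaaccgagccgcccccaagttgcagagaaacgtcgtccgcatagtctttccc
Srxn1: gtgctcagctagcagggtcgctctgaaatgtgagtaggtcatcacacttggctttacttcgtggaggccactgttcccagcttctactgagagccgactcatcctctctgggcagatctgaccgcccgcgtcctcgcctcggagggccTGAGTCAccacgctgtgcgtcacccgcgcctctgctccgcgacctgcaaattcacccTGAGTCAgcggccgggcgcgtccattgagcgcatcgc
Glrx: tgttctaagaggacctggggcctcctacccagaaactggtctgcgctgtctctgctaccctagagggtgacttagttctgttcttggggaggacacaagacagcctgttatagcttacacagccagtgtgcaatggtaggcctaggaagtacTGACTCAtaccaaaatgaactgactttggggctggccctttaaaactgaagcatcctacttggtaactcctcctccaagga

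Motifs were searched on both strands in the 250 bases before each RefSeq start, for 9 of the 10 genes, with no entry for Prdx6. Prdx1 held AP-1 matches 237 and 131 bases before its start, and its antioxidant response element match at 133 bases overlaps the second of them. Prdx3 and Txn2 held no match to either motif or to the E-box CACGTG. Srxn1 held AP-1 matches at 102 and 45 bases and Glrx at 98 bases. Of the genes named above as not shown, Sesn2 held an antioxidant response element match at 36 bases. Txnrd1 held such a match at 92 bases in 1 of its promoters. Among the other members, Sod1 had an antioxidant response element match at 56 bases and Prdx4 an E-box at 52 bases. Over all 32851 promoters of the same length, 10.2% held TGACNNNGC, 4.46% TGAGTCA and 6.02% CACGTG. In the same order, 2, 1 and 1 of the 9 genes did. A match describes the letters and is no evidence of binding.

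Prdx2, a cytosolic peroxiredoxin abundant in red blood cells, is encoded at chr8:84969587-84974834 (plus strand; ENSMUSG00000005161.15). Its group means spanned the widest range of the 10 genes. WT libraries held 176.1, 164.0 and 152.2 CPM unstimulated and 119.7, 87.3 and 84.5 CPM stimulated, without overlap. Gpx4-deficient libraries held 139.9, 99.7 and 162.9 CPM unstimulated and 110.3, 47.9 and 86.5 CPM stimulated, and overlapped. The stimulated-minus-unstimulated difference was -0.76 in WT (95% interval -1.38 to -0.14, edgeR adjusted p = 0.125) and -0.72 in Gpx4-deficient cells (-1.34 to -0.10, adjusted p = 0.114), so neither passed. DESeq2 called the WT difference (-0.79, adjusted p = 0.0387), and edgeR called the Gpx4-deficient one without stimulated replicate 1 (-0.98, adjusted p = 0.0329).

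Reads from the region of Prdx2 cannot all be assigned with certainty. Its exons overlap those of Junb by 173 bases and those of Rnaseh2a by 154 bases on the opposite strand, and the strand setting of the counting is not given in the sources used here. Junb, an AP-1 subunit, was far higher, at 2163 ± 229.5 CPM in unstimulated and 1207 ± 121.3 CPM in stimulated WT cells, and at 2981 ± 381.5 and 692.7 ± 99.6 CPM in Gpx4-deficient cells (SD, n = 3). Prdx2 values were not whole numbers in 11 of 12 libraries, as happens when reads are divided between genes. The fractions do not show how many reads were divided. The summed level of 7 erythroid and platelet markers, all in the table, was 44.8 to 62.2 CPM in unstimulated and 8.53 to 23.5 CPM in stimulated WT libraries. In Gpx4-deficient libraries it was 25.6 to 38.4 and 33.1 to 54.2 CPM. Ppbp was at 0 in every group but unstimulated WT, and Pf4 in stimulated Gpx4-deficient cells. The part of these markers in the Prdx2 values was not tested.

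Prdx5, found in mitochondria, peroxisomes and cytosol, is encoded at chr19:6906697-6910106 (minus strand; ENSMUSG00000024953.17). Stimulated libraries lay below unstimulated ones in both genotypes: 60.3, 68.8 and 68.6 CPM against 43.3, 48.9 and 44.0 CPM in WT, and 67.8, 56.9 and 56.3 CPM against 47.6, 46.9 and 52.1 CPM in Gpx4-deficient cells. The difference was -0.54 in WT (95% interval -0.96 to -0.12, edgeR adjusted p = 0.102) and -0.30 in Gpx4-deficient cells (-0.72 to 0.11, adjusted p = 0.322). DESeq2 called the WT difference (-0.56, adjusted p = 0.00863). Its exons overlap those of Trmt112 on the opposite strand by 360 bases, and its values were not whole in 12 of 12 libraries. Trmt112 itself ran from 75.1 ± 7.39 to 83.1 ± 20.4 CPM over the group means (SD, n = 3).

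Prdx6, which reduces phospholipid hydroperoxides as well as hydrogen peroxide and uses glutathione rather than thioredoxin, is encoded at chr1:161240112-161251219 (minus strand; ENSMUSG00000026701.15). It is the member whose substrates come closest to those of Gpx4. WT libraries held 230.8, 226.9 and 242.0 CPM unstimulated and 267.5, 236.8 and 272.3 CPM stimulated. Gpx4-deficient libraries held 162.9, 269.9 and 246.3 CPM unstimulated and 337.1, 316.2 and 270.1 CPM stimulated, the last group lying just above its unstimulated counterpart. Between the genotypes the difference was -0.04 without stimulation (95% interval -0.41 to 0.33, edgeR adjusted p = 1) and 0.25 with it (-0.12 to 0.62, adjusted p = 0.481). Upon stimulation it was 0.15 in WT (adjusted p = 0.712) and 0.44 in Gpx4-deficient cells (adjusted p = 0.104), the latter called without unstimulated replicate 2 (0.62, adjusted p = 0.0489).

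Prdx4, the peroxiredoxin of the endoplasmic reticulum, which uses peroxide to help fold secreted proteins, is encoded at chrX:155323918-155340754 (minus strand; ENSMUSG00000025289.15). Unstimulated WT libraries held 33.7, 35.5 and 26.5 CPM and Gpx4-deficient ones 20.3, 22.9 and 21.7 CPM. This was the only member whose unstimulated genotypes did not overlap. The difference of -0.56 did not pass the edgeR test (95% interval -1.61 to 0.49, adjusted p = 1). Stimulated libraries scattered more, at 29.2, 24.5 and 14.4 CPM in WT and 34.8, 40.8 and 9.73 CPM in Gpx4-deficient cells, where replicate 3 was the lowest of all 12 libraries. Its intervals were the widest of the 10 genes in each of the 5 comparisons. The summed level of 6 plasma cell markers, some of which activated T cells also express, was 256.4 to 300.1 CPM in unstimulated WT, 284.7 to 335.8 CPM in unstimulated Gpx4-deficient, 422.1 to 474.0 CPM in stimulated WT and 574.6 to 636.1 CPM in stimulated Gpx4-deficient libraries, with none at 0 throughout a group. Their part in the Prdx4 values was not tested.

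Txn1, the cytosolic and nuclear thioredoxin, is encoded at chr4:57943373-57956411 (minus strand; ENSMUSG00000028367.5). WT libraries held 102.0, 99.5 and 87.9 CPM unstimulated and 95.6, 86.1 and 108.5 CPM stimulated. Gpx4-deficient libraries held 97.9, 70.5 and 82.7 CPM unstimulated and 142.3, 84.7 and 156.2 CPM stimulated. Replicates 1 and 3 of the last group were the highest of all 12 libraries, and replicate 2 lay inside the unstimulated range. The difference upon stimulation was 0.00 in WT (95% interval -0.49 to 0.50, edgeR adjusted p = 0.997) and 0.61 in Gpx4-deficient cells (0.11 to 1.11, adjusted p = 0.0957). DESeq2 called the latter (0.61, adjusted p = 0.0456), as did edgeR without stimulated replicate 2 (0.84, adjusted p = 0.0097). Between stimulated genotypes the difference was 0.40 (-0.10 to 0.90, adjusted p = 0.377).

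**Figure D3:**
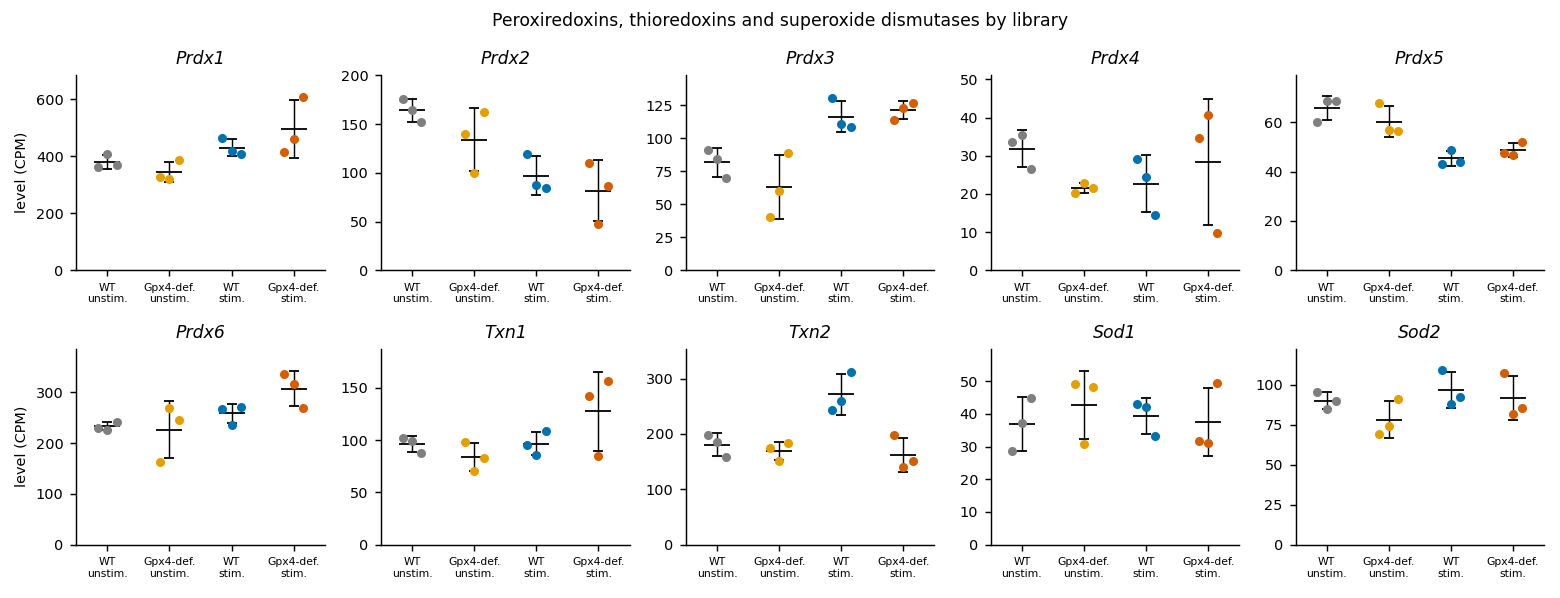
Level (CPM) of the 10 genes in each of the 12 libraries, with the mean and SD of each group of 3. Stimulated WT libraries stood above all others for Txn2 (242.5 to 312.5 CPM), and stimulated libraries above unstimulated ones in both genotypes for Prdx3 and below them for Prdx5.

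Neither superoxide dismutase was called in any of the 5 comparisons. Sod1, the copper and zinc enzyme of the cytosol, is encoded at chr16:90220754-90226329 (plus strand; ENSMUSG00000022982.10), and all 4 groups overlapped, with means from 36.9 ± 8.14 to 42.8 ± 10.4 CPM (SD, n = 3). Its group means spanned the narrowest range of the 10 genes. The difference between genotypes was 0.21 without stimulation (95% interval -0.45 to 0.88) and -0.07 with it (-0.73 to 0.60), intervals too wide to show that the genotypes were alike. Sod2, the manganese enzyme of the mitochondrial matrix and a known NF-kB target, is encoded at chr17:13006846-13040063 (plus strand; ENSMUSG00000006818.5). Its means ran from 78.1 ± 11.6 CPM in unstimulated Gpx4-deficient cells to 96.5 ± 11.2 CPM in stimulated WT cells, and its groups overlapped too.

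Upon stimulation the Sod2 difference was 0.10 in WT (95% interval -0.30 to 0.50, edgeR adjusted p = 0.845) and 0.23 in Gpx4-deficient cells (-0.17 to 0.63, adjusted p = 0.451). Nfkb1, a subunit of NF-kB, rose in the same libraries from 133.8 ± 26.6 to 459.4 ± 24.0 CPM in WT (log2 1.78, SE 0.20, adjusted p = 9.68e-05) and from 149.1 ± 20.7 to 461.5 ± 116.7 CPM in Gpx4-deficient cells (1.63, SE 0.20, adjusted p = 0.00019). A Sod2 transcript and one of Rps6ka2 aligned over 3110 bases with 3056 identical. Rps6ka2 held 966 counts in stimulated Gpx4-deficient replicate 3 and 0 to 258 in the other libraries. Sod2 values were not whole in 9 of 12 libraries. The summed level of 10 neutrophil markers, cells that hold much Sod2, was 47.2 to 176.6 CPM in unstimulated WT and 7.22 to 11.9 CPM in unstimulated Gpx4-deficient libraries, and 21.4 to 81.3 and 4.92 to 57.3 CPM after stimulation. Ly6g was at 0 in every group but stimulated WT, Retnlg in both stimulated groups and Mpo in stimulated Gpx4-deficient cells, and the part of these markers in Sod2 was not tested.

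Transcripts of several proteins that recycle or restrain the members changed upon stimulation. In this list of 9 genes, 2 rose and 4 fell upon stimulation of WT cells, and 3 rose and 3 fell in Gpx4-deficient cells. Of all genes, 11.5% were called in WT and 15.3% in Gpx4-deficient cells. The list's median differences were -0.24 and -0.21, against -0.03 and -0.02 over all genes. Between genotypes 0 of 9 were called by edgeR without stimulation (1 at an unadjusted p under 0.05, against 5.80% of all genes). With stimulation 1 of 9 was called, Txnip. Of all genes, 0.0674% were called without and 2.27% with stimulation.

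Txnrd1, the cytosolic thioredoxin reductase, held 86.5, 66.5 and 69.5 CPM in unstimulated and 191.5, 165.6 and 173.6 CPM in stimulated WT libraries, with no overlap. Gpx4-deficient libraries held 109.0, 73.7 and 64.7 CPM and then 208.9, 193.2 and 205.0 CPM. Txnrd1 rose by log2 1.25 (SE 0.20, edgeR adjusted p = 0.00108) in WT and 1.29 (SE 0.20, adjusted p = 0.000882) in Gpx4-deficient cells. Its mitochondrial counterpart Txnrd2, the reductase of Txn2, did not pass in either genotype, at -0.24 (adjusted p = 0.807) and -0.21 (adjusted p = 0.77), with group means from 27.5 ± 6.88 to 40.2 ± 10.2 CPM.

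Srxn1, sulfiredoxin, restores peroxiredoxins whose cysteine has been overoxidized. It was scarce in unstimulated cells, at 2.24, 5.12 and 2.60 CPM in WT and 0.0703, 0.231 and 1.81 CPM in Gpx4-deficient libraries. Stimulated libraries held 22.6, 18.5 and 20.9 CPM in WT and 10.7, 18.8 and 33.9 CPM in Gpx4-deficient cells, above every unstimulated library. Srxn1 rose in Gpx4-deficient cells by log2 4.90 (SE 1.09, edgeR adjusted p = 0.0102), while the WT difference of 2.64 (SE 0.98, adjusted p = 0.121) missed the threshold. The interaction was 2.26 (95% interval -0.65 to 5.17, adjusted p = 0.68). The call in Gpx4-deficient cells was kept in all 13 alternatives tried.

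Txnip binds reduced thioredoxin and blocks it, and it also restrains glucose uptake. Its WT libraries held 435.6, 397.3 and 481.1 CPM unstimulated and 187.1, 182.0 and 169.6 CPM stimulated. Gpx4-deficient libraries held 444.8, 437.2 and 580.3 CPM unstimulated and 462.9, 315.9 and 444.5 CPM stimulated. The 3 stimulated WT libraries stood below all 9 others, whereas for Txn2 they stood above all others. Txnip fell in WT cells by log2 1.29 (SE 0.16, edgeR adjusted p = 0.000222) and was 2.27-fold higher in stimulated Gpx4-deficient than in stimulated WT cells (log2 1.18, SE 0.16, adjusted p = 0.00344), a call kept in all 12 alternatives. In Gpx4-deficient cells the difference upon stimulation was -0.26 (95% interval -0.61 to 0.09, adjusted p = 0.312). The interaction of 1.03 (0.54 to 1.52, adjusted p = 0.128) did not pass.

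The sestrins, stress-induced proteins linked to peroxiredoxin recycling and to restraint of mTORC1, split. Sesn2 rose from 41.3 ± 14.2 to 238.1 ± 55.3 CPM in WT (log2 2.53, SE 0.35, edgeR adjusted p = 0.00042) and from 42.6 ± 14.4 to 188.3 ± 55.8 CPM in Gpx4-deficient cells (2.14, SE 0.34, adjusted p = 0.00121). Sesn1 fell in both, by 1.47 (adjusted p = 0.0154) and 1.30 (adjusted p = 0.0248), as did Sesn3, by 0.74 (adjusted p = 0.0292) and 0.68 (adjusted p = 0.0343). The WT call of Sesn3 was lost without any 1 of the 6 libraries (adjusted p from 0.0579 to 0.123) and its Gpx4-deficient call without any but stimulated replicate 3 (0.0508 to 0.173). The WT call of Sesn1 was lost without unstimulated replicate 1 or 3 or stimulated replicate 2 or 3 (0.0548 to 0.0697), and its Gpx4-deficient call without unstimulated replicate 2 or 3 or stimulated replicate 1 (0.0719 to 0.109). Ccs, the copper chaperone that loads Sod1, fell from 121.7 ± 6.80 to 39.2 ± 5.30 CPM in WT (log2 -1.64, SE 0.26, adjusted p = 0.00119) and from 112.8 ± 23.1 to 54.4 ± 18.9 CPM in Gpx4-deficient cells (-1.05, SE 0.26, adjusted p = 0.0157), while Sod1 itself was not called. The latter call was lost without unstimulated replicate 1 (adjusted p = 0.0583). Sesn1, Sesn3 and Txnrd2 were named after their values were seen.

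**Figure D4:**
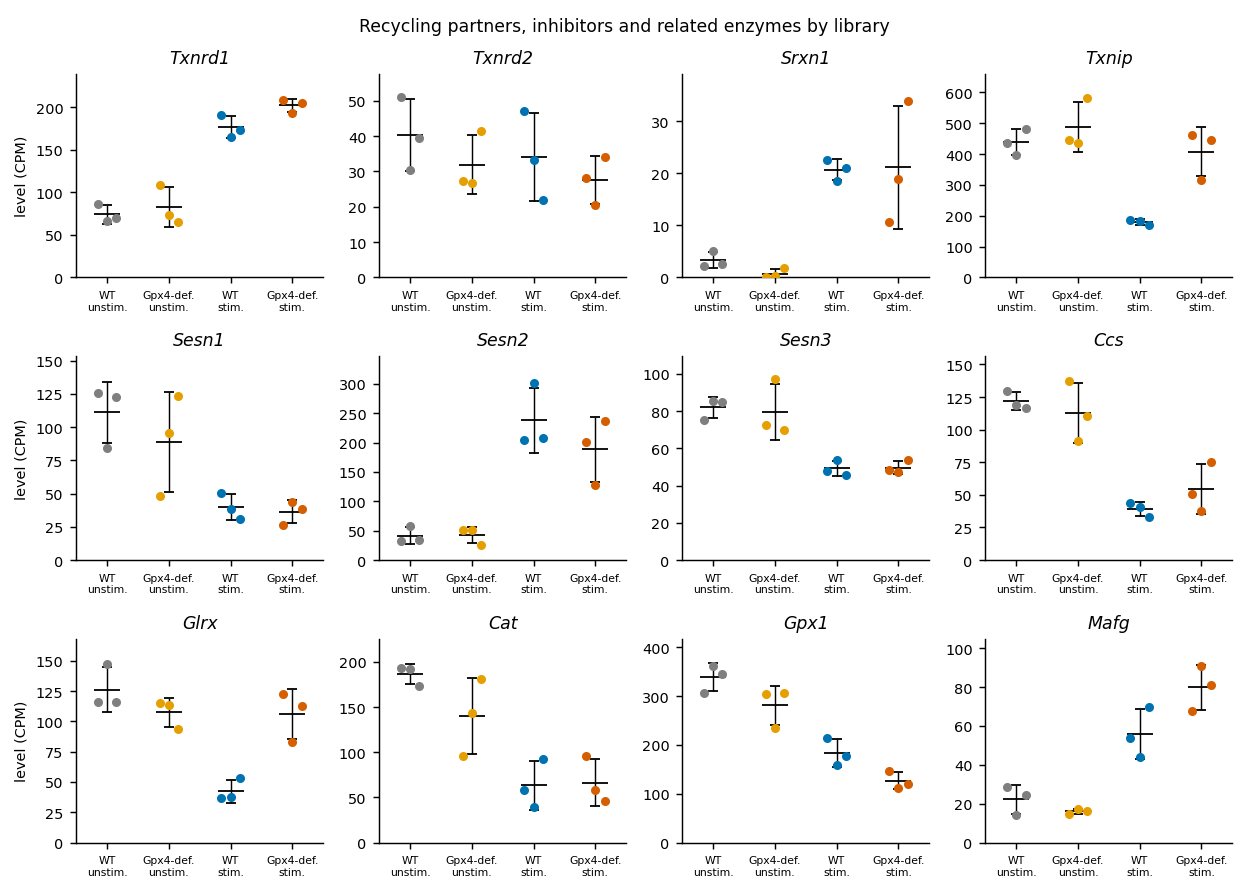
Level (CPM) of 12 genes that recycle, restrain or work beside the members, in each of the 12 libraries with group mean and SD. Stimulated WT libraries were the lowest for Txnip (169.6 to 187.1 CPM) and Glrx (36.5 to 53.4 CPM), and Txnrd1, Sesn2 and Srxn1 were higher in every stimulated library than in any unstimulated one.

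Of 19 other thioredoxin-fold genes, 2 rose and 1 fell upon stimulation of WT cells and 1 rose in Gpx4-deficient cells. The median differences were 0.02 and 0.00. With 11.5% and 15.3% of all genes called, these counts were near or below the background. Txndc5, a protein disulfide isomerase of the endoplasmic reticulum, rose in both, by log2 0.57 (SE 0.17, edgeR adjusted p = 0.0449) and 0.82 (SE 0.17, adjusted p = 0.00559). The WT call was lost without any library but stimulated replicate 3 (adjusted p from 0.0889 to 0.164). Txnl1 rose in WT (0.83, adjusted p = 0.0366), a call lost without any 1 of the 6 libraries (0.0825 to 0.174). Between genotypes 0 of 19 were called without stimulation by edgeR (0 at an unadjusted p under 0.05, against 5.80% of all genes). With stimulation 1 of 19 was called, Glrx. Of all genes, 0.0674% were called without and 2.27% with stimulation.

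Glrx, the cytosolic glutaredoxin, uses glutathione where thioredoxin uses its reductase. WT libraries held 115.9, 147.4 and 115.7 CPM unstimulated and 36.5, 37.4 and 53.4 CPM stimulated. Gpx4-deficient libraries held 115.5, 113.3 and 93.7 CPM unstimulated and 122.6, 83.0 and 112.6 CPM stimulated, so that the stimulated WT libraries were again the group apart. Glrx fell in WT cells by 1.57 on the log2 scale (SE 0.22, edgeR adjusted p = 0.000464) and was 2.50-fold higher in stimulated Gpx4-deficient cells (log2 1.32, SE 0.22, adjusted p = 0.0103). The latter call was lost without stimulated WT replicate 1 (log2 1.25, adjusted p = 0.0513) and kept in the other 11 of 12 alternatives. Glrx5, the mitochondrial glutaredoxin of iron-sulfur cluster assembly, was lower in every stimulated Gpx4-deficient library, at 44.9 ± 2.31 against 81.6 ± 5.41 CPM in WT, but missed the threshold (log2 -0.86, SE 0.25, edgeR adjusted p = 0.0988).

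Other enzymes of superoxide and peroxide gave 0 rises and 2 falls among 4 tested genes in WT cells, and 0 and 1 in Gpx4-deficient cells (11.5% and 15.3% of all genes were called). Their median differences were -1.22 and -1.11. Sod3 and Gpx7 among them were near the floor, with group means of 0 to 1.78 CPM and 1.07 to 4.27 CPM. Gpx1, the cytosolic glutathione peroxidase, fell from 338.5 ± 28.7 to 183.5 ± 27.8 CPM in WT (log2 -0.88, SE 0.16, edgeR adjusted p = 0.00314) and from 281.6 ± 40.2 to 126.7 ± 17.9 CPM in Gpx4-deficient cells (-1.15, SE 0.16, adjusted p = 0.000515). Cat, catalase of the peroxisome, fell from 186.3 ± 11.0 to 63.5 ± 27.0 CPM in WT (-1.55, SE 0.35, adjusted p = 0.0119), a call lost without stimulated replicate 1 (adjusted p = 0.0564) or 2 (0.054). The Gpx4-deficient difference of -1.08 missed (adjusted p = 0.0563). Between genotypes 0 of 4 were called by edgeR without or with stimulation (0.0674% and 2.27% of all genes). At an unadjusted edgeR p under 0.05 there were 0 and 2 (5.80% and 18.3% of all genes). They were Gpx1 and Sod3. Sod3 was at 0 in all stimulated Gpx4-deficient libraries and reached at most 3.36 CPM, in stimulated WT cells.

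Among 8 genes listed as clients of thioredoxin, 1 fell in WT cells and 0 were called in Gpx4-deficient cells. The medians were -0.67 and -0.37 (11.5% and 15.3% of all genes were called). The gene that fell was Rrm2, a ribonucleotide reductase subunit (log2 -1.05, SE 0.27, edgeR adjusted p = 0.0256). Its call was lost without unstimulated replicate 1 or 2 or stimulated replicate 1 or 3 (adjusted p from 0.0813 to 0.113). Among 8 tested sources of superoxide and peroxide, 1 rose and 3 fell in WT cells, and 1 rose and 2 fell in Gpx4-deficient cells, with medians of -0.41 and -0.61, against the same shares of all genes. Most of this list encodes the oxidase of phagocytes. The summed level of 7 monocyte and macrophage markers, all in the table, was 136.6 to 234.0 CPM in unstimulated and 23.0 to 56.9 CPM in stimulated WT libraries, and 105.3 to 156.8 and 60.2 to 90.9 CPM in Gpx4-deficient ones. Fcgr1 was at 0 in both stimulated groups and Itgam in stimulated WT cells, and the part of these markers in the oxidase genes was not tested. Rac2, a small GTPase of the phagocyte-type NADPH oxidase with wider roles in T cells, fell from 2884 ± 162.5 to 582.2 ± 65.3 CPM in WT and from 3038 ± 103.5 to 615.3 ± 79.2 CPM in Gpx4-deficient cells, at log2 -2.31 and -2.30 (SE 0.11 each, edgeR adjusted p = 1.1e-07 and 1.33e-07). Cyba, a membrane subunit of that oxidase, fell by 0.99 and 1.34, and Ncf4 fell in WT cells by 1.15, a call lost without unstimulated replicate 2 or stimulated replicate 1 or 2 (adjusted p from 0.0515 to 0.0581). Ero1l, which makes peroxide while it oxidizes proteins in the endoplasmic reticulum, rose by 1.54 (adjusted p = 0.00236) and 1.39 (adjusted p = 0.00409). Neither list had a call between the genotypes in either state by edgeR (0.0674% of all genes without and 2.27% with stimulation). At an unadjusted edgeR p under 0.05 the clients had 2 without and 0 with stimulation, and the sources 0 and 1. Over all genes these shares were 5.80% and 18.3%.

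Of 10 transcription factors known to act on promoters of the members, or to control such factors, 2 rose in WT and 3 in Gpx4-deficient cells and none fell, with median differences of 0.50 and 0.48 (6.12% and 7.45% of all genes were called higher). Besides Nfkb1 these were Mafg, a small Maf partner of NRF2 and BACH1, and Maff, which was called in Gpx4-deficient cells (log2 3.6, SE 1.07, edgeR adjusted p = 0.0415) and lost without any library but stimulated replicate 1 (0.0574 to 0.121). Mafg held 28.4, 14.1 and 24.5 CPM in unstimulated and 53.6, 44.2 and 69.9 CPM in stimulated WT libraries, and 14.8, 17.4 and 16.2 against 67.7, 90.9 and 81.0 CPM in Gpx4-deficient ones. It rose by log2 1.32 (SE 0.30, edgeR adjusted p = 0.013) and 2.31 (SE 0.31, adjusted p = 0.000383), with an interaction of 0.98 (adjusted p = 0.552). The WT call was lost without unstimulated replicate 2 (adjusted p = 0.0559) or stimulated replicate 3 (0.0729). The transcript of Nfe2l2, which encodes NRF2 itself, was not called, at 0.88 (adjusted p = 0.136) in WT and 0.51 (adjusted p = 0.349) in Gpx4-deficient cells. No factor was called between the genotypes by edgeR without or with stimulation, where 0.0674% and 2.27% of all genes were. At an unadjusted edgeR p under 0.05 there were 0 and 2 (5.80% and 18.3% of all genes).

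The levels most like those of the 3 members with the widest range of group means were sought among 7277 genes, by the root mean square difference of centred log2 CPM over the 12 libraries. For Prdx2 these were Lpxn (0.126), Acp1 (0.180) and Ebp (0.190), against a median of 0.731 over all candidates. Lpxn held 188.5 ± 8.58 and 115.6 ± 15.2 CPM in WT and 179.1 ± 34.7 and 107.6 ± 39.4 CPM in Gpx4-deficient cells, unstimulated and stimulated (SD, n = 3). For Prdx3 they were Gtf2e2 (0.178), Lrrc42 (0.186) and Pgam1 (0.192), with a median of 0.670. For Txn2 they were Gimap5 (0.139), Poldip2 (0.156) and Abhd11 (0.161), with a median of 0.604. Gimap5 held 142.5 ± 14.95 and 225.7 ± 21.5 CPM in WT and 139.9 ± 21.4 and 131.8 ± 41.4 CPM in Gpx4-deficient cells. It was picked for its likeness to Txn2, so a highest mean in stimulated WT cells follows from that choice. All these values come from the same libraries and share their scaling.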

How the data were processed

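RNA was measured by sequencing in 12 libraries of Treg cells, 3 in each of 4 groups taken from the labels. The authors deposited 1 table of expected counts per gene, in which reads that match several genes are divided among them, so that values need not be whole. The genome build was GRCm38, per the submitters' processing notes, with no aligner or annotation version named. The expected counts were rounded, genes with few counts were removed with filterByExpr (minimum count 10), libraries were scaled with TMM, and a quasi-likelihood model of 4 group means was fitted with edgeR 4.0.16 in R 4.3.3 over all 12 libraries, with 8 residual degrees of freedom. P-values were adjusted over all 14827 genes (Benjamini-Hochberg, threshold 0.05), for 5 comparisons. Each SE is the absolute log2 difference over the square root of edgeR's F statistic. The 95% intervals use these SEs with the total degrees of freedom of the test, so they restate its p-value. Log2 CPM for likeness used a prior count of 2. The fit was also run on simulated counts with planted changes larger than those of the called members, drawn at the spread estimated from these data. That run does not show how reliable the calls of members are. Alternatives were RLE scaling, library totals, no low-count filter, DESeq2 1.42.0, limma-voom 3.58.1, a replicate block and leaving out each library. Similar transcripts were found with BLAST 2.17.0 in GENCODE M21, and promoters are RefSeq's.

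The 10 genes and the pathway lists were chosen with earlier results of these data known. Pathway genes were given by list counts, with values for up to 4 genes of a list per comparison in order of p.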

Additional observations from a re-analysis of the deposited data

Results flagged for a closer look

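The genotype difference of Glrx, a glutaredoxin, pointed in opposite directions in the 2 states, which is why it is listed. All 3 unstimulated Gpx4-deficient libraries lay below all 3 WT ones, the nearest by a small margin (115.5 against 115.7 CPM), and the difference was not called (log2 -0.23, 95% interval -0.70 to 0.23, edgeR adjusted p = 1). All 3 stimulated ones lay above the stimulated WT libraries (log2 1.32, adjusted p = 0.0103). A reversal between the states was therefore not shown. The difference between these effects was 1.55 (SE 0.30, 95% interval 0.89 to 2.22, unadjusted p = 0.000281), and it missed the threshold of edgeR's test after adjustment over all genes (adjusted p = 0.0751).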

How the results depend on the processing

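The limits are 3 libraries per group and calls that lie close to the threshold. Of 690 values of single members under the alternatives, 635 kept direction and side of the threshold, 22 lost a call, 7 gained one and 26 changed sign. The last were all uncalled and included -0.22 for the Prdx2 interaction and 0.17 for Prdx6 between unstimulated genotypes. The number of members called between stimulated genotypes, 1, was 0 with RLE scaling, without the low-count filter and with a replicate block, and 0 to 1 when 1 library was left out. In WT cells upon stimulation the 1 was 0 with library totals, without the filter, with a replicate block and with a replicate block within genotype, 3 with DESeq2 (Prdx2, Prdx5, Txn2), and 0 to 1 when 1 library was left out. In Gpx4-deficient cells the 2 became 0 to 3 when 1 library was left out, 0 without stimulated replicate 3. With merged exon lengths the members that kept their rank were 3 of 10 in unstimulated WT, 3 in unstimulated Gpx4-deficient, 3 in stimulated WT and 2 in stimulated Gpx4-deficient cells.

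The same replicate numbers recur in the titles of both states within each genotype, and nothing states whether they mark the same animals. Deviations of same-numbered libraries correlated at -0.02 to 0.03 and 0 of them exceeded 0.1. No libraries known to share an animal were available for comparison, so these correlations cannot exclude pairing. With the replicate block the adjusted p of Txn2 was 0.0784 between stimulated genotypes and 0.0596 upon stimulation in WT (0.0945 within genotype), and with the block within genotype that of Prdx2 upon stimulation in Gpx4-deficient cells was 0.0444.

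Sign changes of the response of Txn1 in WT cells gave -0.0213 with RLE scaling and with DESeq2, -0.0322 with library totals, -0.036 without the filter, -0.00269 with limma-voom, -0.0108 with the replicate block and -0.0958 to 0.0686 when 1 library was left out. The Prdx2 interaction was -0.032 with limma-voom and -0.22 to 0.33 when 1 library was left out. Leaving out 1 library gave -0.0723 to 0.27 for Sod1 in WT upon stimulation, -0.20 to 0.056 for Txn2 in Gpx4-deficient cells upon stimulation, -0.17 to 0.17 for Prdx6 and -0.14 to 0.00524 for Txn2 between unstimulated genotypes, and -0.32 to 0.0816 for Sod1, -0.16 to 0.0455 for Sod2 and -0.49 to 0.0606 for Prdx2 between stimulated genotypes. The cause was not tested.

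Over all genes, the 10 calls between unstimulated genotypes were 183 with DESeq2, 21 with limma-voom, 3 with the replicate block and 3 to 14 when 1 library was left out. The 337 between stimulated genotypes were 1564 with DESeq2, 171 with the block and 117 to 658 when 1 library was left out. The 1709 in WT and 2266 in Gpx4-deficient cells were 2639 and 3609 with DESeq2. The 30 of the interaction were 380 with DESeq2, 0 with limma-voom, 5 with the block, 0 with the block within genotype and 2 to 167 when 1 library was left out. Limma-voom moved the median of all genes to -0.21 between stimulated genotypes, -0.26 upon stimulation in Gpx4-deficient cells and -0.14 in the interaction. The block within genotype moved the last 2 to -0.23 and -0.14, and the replicate block the response in Gpx4-deficient cells to -0.13.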

Other observations

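Grouped by the compartment of their proteins, the members gave few calls anywhere. Of the 5 cytosolic and nuclear members, 1 rose upon stimulation of Gpx4-deficient cells (Prdx1), with a median log2 difference of 0.44. In WT cells 0 were called by edgeR or by limma-voom, with a median of 0.09. There 1 had an unadjusted edgeR p under 0.05 (23.3% of all genes did). DESeq2 called Prdx2 there. Of the 4 mitochondrial members, counting Prdx5, which also sits in peroxisomes and cytosol, 1 rose in each genotype, Txn2 in WT and Prdx3 in Gpx4-deficient cells, with medians of 0.30 in WT and 0.09 in Gpx4-deficient cells. Over all genes 11.5% were called in WT and 15.3% in Gpx4-deficient cells, 6.12% and 7.45% as higher, so counts this small show nothing particular to a compartment. Neither the Txn2 nor the Prdx3 interaction passed the test. The 1 member of the endoplasmic reticulum, Prdx4, was not called.

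The 4 pseudogene copies in the table held few reads. The Prdx1 processed pseudogenes Gm21399 and Gm7204 share 587 and 582 of 597 bases with it and held at most 11.8 and 14.4 counts in a library, against at least 8377 for Prdx1. Gm8566 matches Sod1 at 455 of 465 bases and held at most 4.02 counts, and Txn-ps1 matches Txn1 at 296 of 309 bases and held at most 2. Rps6ka2, which matches Sod2 over part of its length, held 966 counts in stimulated Gpx4-deficient replicate 3 and at most 258 in any other library. Sod2 held 1923 to 2989. The Prdx2 copy Tdpx-ps1 and AC166110.4, which matches Sod2 at 3060 of 3108 aligned bases, were not analysed here.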
